A study of Mus musculus with 8 samples.

Results

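The BCL2 family genes described here were 10 listed members, namely *Bcl2*, *Bcl2l1*, *Mcl1*, *Bcl2a1b*, *Bcl2a1d*, *Bcl2l11*, *Bid*, *Bbc3*, *Bax* and *Bak1*. They were found by gene symbol, and all 10 were among the 20172 genes in the deposited table. RNA was sequenced from TNFR2+ Tregs and TNFR2- Tregs, with 4 libraries of each population. Both populations came from the spleens of *Foxp3* CreYFP mice, in which the *Foxp3* locus drives a yellow fluorescent protein (YFP) fused to Cre. The study used male and female mice aged 8 to 12 weeks, and its series record calls the donors of these cells female. CD4 T cells were enriched and sorted as YFP+ cells with or without surface TNFR2, the receptor for tumor necrosis factor that *Tnfrsf1b* encodes. The cells received no stimulation that the labels or methods name before the RNA was taken. Every cell carried the reporter and its Cre in both groups, so the groups differed by the TNFR2 gate alone as far as the labels state. The description of the comparison gives n = 4 for the mice, but neither it nor the labels say which libraries came from which mouse or whether cells were pooled, so p values measure the spread between these libraries, part of which may be technical.

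BCL2 family proteins decide whether the outer mitochondrial membrane stays intact. The pro-survival proteins BCL2, BCL-XL (*Bcl2l1*), MCL1 and A1 (the *Bcl2a1* genes) hold the pore-forming effectors BAX (*Bax*) and BAK (*Bak1*) in check, and the BH3-only proteins BIM (*Bcl2l11*), BID (*Bid*), PUMA (*Bbc3*) and NOXA (*Pmaip1*) bind and neutralize the pro-survival proteins or activate the effectors. Once BAX or BAK opens the membrane, cytochrome c leaves the mitochondrion, the apoptosome forms and executioner caspases are cleaved. In Tregs, MCL1 is required for survival, BIM limits the lifespan of the cells, and IL-2 signaling through STAT5 is a known source of survival signals.

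TNFR2+ Tregs had more *Bcl2l1*, *Bcl2a1b* and *Bcl2a1d* RNA and less *Bcl2* and *Bcl2l11* RNA than TNFR2- Tregs. The group means of normalized counts were 2.37-fold, 2.51-fold and 3.33-fold higher for the first 3 genes, while TNFR2- Tregs held 2.05-fold more *Bcl2* and 3.78-fold more *Bcl2l11*. The other 5 members did not pass the test. Of the 10 members, 3 were higher and 2 were lower at an adjusted p under 0.05, where limma was fitted to log2(normalized count + 1) over the 13990 genes with a mean of at least 10 and p values were adjusted over all of them. Among all genes tested, 7.91% passed, 4.52% as higher and 3.39% as lower. The 2 groups of libraries did not overlap in 6 of the 10 members, against 15.4% of all genes tested. The counts of higher and of non-overlapping members both include *Bcl2a1b* and *Bcl2a1d* as 2 members, although these near-identical copies can exchange reads. The median log2 fold change of the members was 0.21, since rises and falls were both present, and that of all genes tested was −0.01. In bulk RNA, fewer cells that carry a transcript and less of it per cell cannot be told apart.

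**Figure D1:**
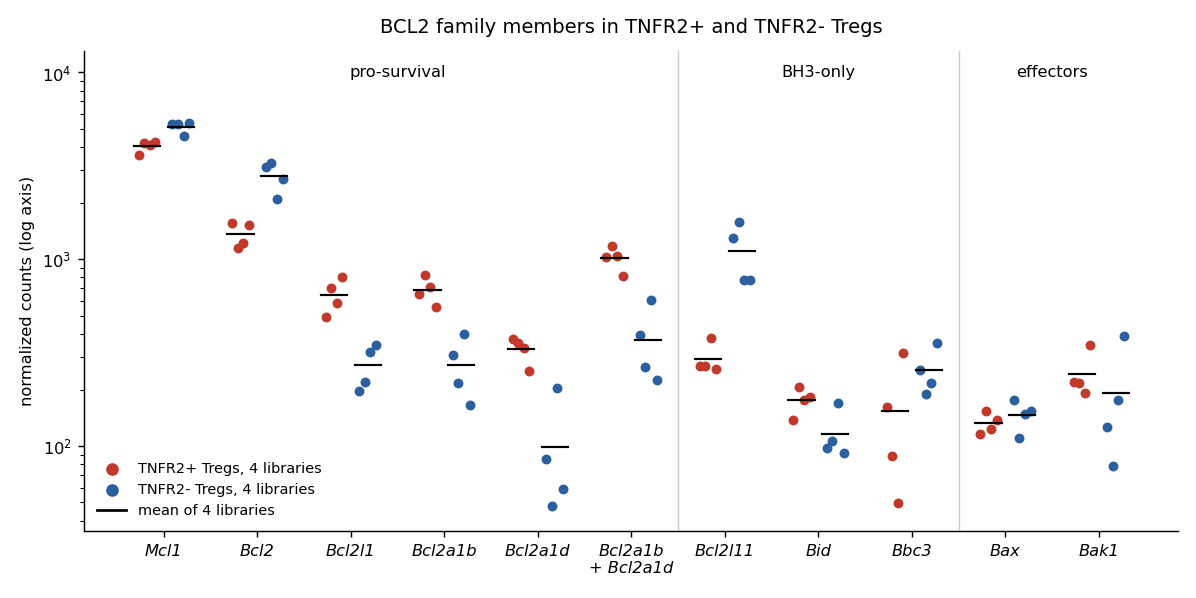
Normalized counts (log axis) of the 10 members and of the *Bcl2a1b* plus *Bcl2a1d* sum in the 4 TNFR2+ (red) and 4 TNFR2- (blue) libraries, in replicate order within each group; black lines are means. The groups are apart for *Mcl1*, *Bcl2*, *Bcl2l1*, both *Bcl2a1* genes and *Bcl2l11*, and overlap for *Bid*, *Bbc3*, *Bax* and *Bak1*.

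The libraries were checked before these genes were read. Depth was estimated at 9090000 to 12120000 reads per library. *Tnfrsf1b* lay between 1840 and 3148 normalized counts in TNFR2+ libraries and between 1177 and 1563 in TNFR2- libraries, so the groups were apart in the direction of the sort. All 8 Treg markers were present in every library. *Foxp3* lay between 2812 and 3313 in TNFR2+ libraries and between 3292 and 4033 in TNFR2- libraries, ranges that overlapped. *Il2ra* was lower in TNFR2+ libraries with no overlap (2561 to 3070 and 3219 to 3990). *Ctla4*, *Ikzf2*, *Tnfrsf18* and *Cd3e* were higher in TNFR2+ libraries with no overlap, and *Cd4* overlapped (3967 to 4505 and 3009 to 4240). The summed level of the B cell markers (8 of 10 in the table) was 3907 to 5988 in TNFR2+ libraries and 1742 to 2806 in TNFR2- libraries. Most of this sum was *Ighm* (3433 to 5576 and 1583 to 2404), and *Cd22* also lay apart between the groups (273 to 350.3 and 54.7 to 223). Of the other 6 markers, *Ms4a1*, *Cd79b* and *Pax5* reached 99.4, 64.6 and 41.5 in their highest library, and *Cd79a*, *Fcer2a* and *Blk* stayed at or under 6.1. Myeloid markers (7 of 12) summed to 593 to 1023 and 207 to 397, mostly *Cybb*, with *Csf1r* at 0 in all TNFR2+ libraries. Cytotoxic lymphocyte markers (7 of 9) summed to 142 to 212 and 93.4 to 170.0, and the only erythroid marker in the table (1 of 6) reached no more than 12.1. *Xist* lay between 16369 and 18154 in TNFR2+ libraries and between 10228 and 13795 in TNFR2- libraries, so it separated the groups. The Y-linked genes *Kdm5d* (131 to 195 and 122 to 257) and *Uty* (72.2 to 172 and 85.8 to 212) were measured in every library. Of the 5 sex genes listed, 3 were in the table, and the Y-linked *Ddx3y* and *Eif2s3y* were not among them. The series record names female mice, while the methods of the study name both sexes. The part of these marker and sex genes in the results on the family was not tested.

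TNFR2- replicate 3 stood apart from the other 7 libraries. On the second principal component, which held 16.7% of the variance, it lay at 91.32, and the others lay between −39.08 and 17.96. It was also the TNFR2- library nearest to the TNFR2+ mean for 7 of the 10 members. These 7 include both *Bcl2a1* copies, and *Bid*, *Bax* and *Bak1*, whose groups overlapped. The same count was not made over all genes, so it is not read as a trait of the members. Of the 8 B cell markers, 2 were highest of all libraries in this one, *Ms4a1* (99.4 normalized counts, 19.6 to 79.9 in the other 7) and *Pax5* (41.5, 0 to 9.68 in the other 7). The other 6 were highest elsewhere, with *Ighm* at 2404 and *Cd22* at 223 in this library, both below every TNFR2+ library. The part of these markers in its values was not tested. The members called as higher or lower were called without it too, and *Mcl1* was called in addition.

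*Bcl2* (chromosome 1 of GRCm38 from 106538178 to 106714274, minus strand), the founding survival gene of the family, was measured at 1565, 1152, 1226 and 1533 normalized counts in TNFR2+ replicates 1 to 4. In TNFR2- replicates 1 to 4 it was measured at 3126, 3284, 2107 and 2693. Every TNFR2+ library was below every TNFR2- library, and TNFR2- replicate 3 was the lowest of its group. The log2 fold change was −1.03 (standard error (SE) 0.16, 95% confidence interval −1.37 to −0.68, adjusted p = 0.00191). By an exact two-sided permutation test over the 70 relabellings of 4 libraries against 4, p was 0.0286, which is the smallest this design allows.

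*Bcl2l1* (chromosome 2 from 152780668 to 152831728, minus strand) encodes BCL-XL, which binds BAX, BAK and several BH3-only proteins. It had 489.5, 701, 583 and 800.4 normalized counts in TNFR2+ libraries and 198, 221, 321 and 346 in TNFR2- libraries. The lowest TNFR2+ library lay above the highest TNFR2- library. Its log2 fold change was 1.26 (SE 0.23, 95% confidence interval 0.76 to 1.75, adjusted p = 0.00475), opposite in sign to that of *Bcl2*.

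The counts of *Bcl2l1* and *Bcl2* moved in opposite directions, so the log2 difference of their ratio within a library adds the 2 changes and is no separate result. The *Bcl2l1* to *Bcl2* ratio of normalized counts was 0.313, 0.608, 0.476 and 0.522 in TNFR2+ replicates 1 to 4 and 0.0632, 0.0674, 0.152 and 0.129 in TNFR2- replicates 1 to 4. On the log2 scale the mean ratio was −1.10 ± 0.41 (SD, n = 4) and −3.39 ± 0.64 (SD, n = 4), a difference of 2.29. These ratios do not take length into account, so only their change between the groups is read. The difference carries no test, since the pair was chosen with the results known.

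*Mcl1* (chromosome 3 from 95658788 to 95663176, plus strand) encodes a survival protein of very short half-life. It had the highest counts of the members, at 3597, 4182, 4079 and 4260.25 in TNFR2+ libraries and 5278, 5319, 4579 and 5363 in TNFR2- libraries. The groups did not overlap, with TNFR2- replicate 3 again nearest to the TNFR2+ libraries. The log2 fold change was −0.35 (SE 0.10, 95% confidence interval −0.57 to −0.13), with an adjusted p of 0.0574 and an exact permutation p of 0.0286. The adjusted p was 0.0321 when TNFR2- replicate 3 was left out. It was 0.0464 with only genes of a mean of at least 50 and 0.0476 with libraries rescaled to the same upper quartile. It was 0.210 without an intensity trend, 0.174 with rescaling to the same total and 0.152 without TNFR2+ replicate 1. *Mcl1* passed in 1 of the 8 fits without a library and in 2 of the 8 other alternative fits, so whether it passes depends on these choices.

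*Bcl2a1b* and *Bcl2a1d* are 2 of the mouse copies of the A1 gene, a survival gene that NF-kB induces in activated lymphocytes. They lie on chromosome 9, *Bcl2a1b* from 89199209 to 89207827 on the plus strand and *Bcl2a1d* from 88723285 to 88731914 on the minus strand. Their coding sequences in the GENCODE annotation of GRCm38 are both 516 bases long and differ at 6 positions, which makes them 98.84% identical, and the longest stretch with no difference spans 217 bases. Counted from the A of the start codon as 1, and going from *Bcl2a1b* to *Bcl2a1d*, the substitutions are G4T, T48C, A94C, G312A, C381G and T490A. The first 120 coding bases hold 3 of the 6 differences and are shown because a read needs to cross such a position to be told apart. The window is chr9:89199360-89199479 on the plus strand for *Bcl2a1b* and chr9:88731600-88731719 on the minus strand for *Bcl2a1d*, within a single exon in each gene, and capitals mark the differing bases.
Bcl2a1b: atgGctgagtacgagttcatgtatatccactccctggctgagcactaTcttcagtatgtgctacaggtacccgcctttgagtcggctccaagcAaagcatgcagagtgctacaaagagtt
Bcl2a1d: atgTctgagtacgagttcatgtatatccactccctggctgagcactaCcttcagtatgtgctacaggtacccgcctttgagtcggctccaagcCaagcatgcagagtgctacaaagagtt

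Of the 31-base words in the annotated transcripts, 88.8% of those of *Bcl2a1b* and 89.1% of those of *Bcl2a1d* also occurred in another gene. The 2 genes shared 72.4% and 68.4% of their words with each other, and *Bcl2a1a* held 56.7% and 73.9% of them. *Bcl2a1a* and *Bcl2a1c* were not analysed here, and *Gm29094*, a further annotated gene that shares 47.3% of the words of *Bcl2a1b*, lay between 0 and 52.9 normalized counts in the 8 libraries. Among the other members, 15.3% of the words of *Bax* occurred in *Gm45808*, and no more than 0.919% were shared for any of the rest.

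*Bcl2a1b* had 653, 826, 709 and 558 normalized counts in TNFR2+ libraries and 307, 218, 401 and 166 in TNFR2- libraries. *Bcl2a1d* had 374, 356, 337 and 254 in TNFR2+ libraries and 85.7, 48.1, 204 and 59.3 in TNFR2- libraries. For both copies the groups did not overlap, and TNFR2- replicate 3 was the highest of its group. The log2 fold changes were 1.39 (SE 0.25, adjusted p = 0.00483) and 1.94 (SE 0.38, adjusted p = 0.00759), and that of *Bcl2a1d* had an adjusted p of 0.0559 without an intensity trend in the variances.

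The split between the copies is uncertain, so they were also summed. The sum does not settle reads that may be exchanged with *Bcl2a1a*, which is not part of it. The sum was 1027, 1183, 1045 and 812 normalized counts in TNFR2+ libraries and 393, 266, 605 and 226 in TNFR2- libraries. Its log2 fold change was 1.54 (SE 0.27, 95% confidence interval 0.97 to 2.12, adjusted p = 0.00346). All TNFR2+ libraries lay above all TNFR2- libraries, and the sum was called in each of the 8 fits that left out a library. The *Bcl2a1d* to *Bcl2a1b* ratio overlapped between the groups, with 0.431 to 0.574 in TNFR2+ libraries and 0.221 to 0.509 in TNFR2- libraries.

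Levels of different genes were compared per kilobase of the longest annotated protein-coding transcript. On that scale *Mcl1* had 1179 ± 87.2 normalized counts per kilobase (SD, n = 4) in TNFR2+ libraries and 1502 ± 109 (SD, n = 4) in TNFR2- libraries. The A1 sum had 1223 ± 185 and 449 ± 204, *Bcl2* had 190.4 ± 29.3 and 389.8 ± 73.3, and *Bcl2l1* had 251 ± 52.8 and 106 ± 28.5. In TNFR2+ Tregs, *Mcl1* and the A1 sum therefore stood within an SD of each other, above *Bcl2l1* and *Bcl2*. In TNFR2- Tregs, *Mcl1* stood above the A1 sum and *Bcl2*, which lay within an SD of each other, and *Bcl2l1* was lowest. With the mean length of the protein-coding transcripts in place of the longest, *Mcl1* rose to 1885 per kilobase in TNFR2+ libraries and was above the A1 sum there. In TNFR2- libraries *Bcl2* rose to 559 and its mean was then above that of the A1 sum, which stayed at 449. Those parts of the order therefore depend on the transcript length used.

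Expressed as shares of their summed level per kilobase of longest coding transcript, the pro-survival transcripts were made up differently in the 2 populations. Shares were not computed with the mean transcript length. *Bcl2a1b* plus *Bcl2a1d* (the A1 sum) made up 35.5% to 46.2% in TNFR2+ libraries and 11.6% to 29.3% in TNFR2- libraries. *Mcl1* made up 39.1% to 45.4% and 53.9% to 66.7%, *Bcl2* 5.20% to 8.08% and 11.8% to 18.9%, and *Bcl2l1* 7.08% to 11.3% and 3.04% to 5.74%. None of these 4 ranges overlapped between the populations. The 4 shares are parts of the same total, so a larger A1 share lowers the others and they are not separate results. The lower *Mcl1* share is thus no sign of its own that *Mcl1* changed. The summed level itself was 2693 to 3081 per kilobase in TNFR2+ libraries and 2351 to 2531 in TNFR2- libraries. The *Bcl2* and A1 shares of TNFR2- replicate 3 were the closest of its group to those of the TNFR2+ libraries.

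**Figure D2:**
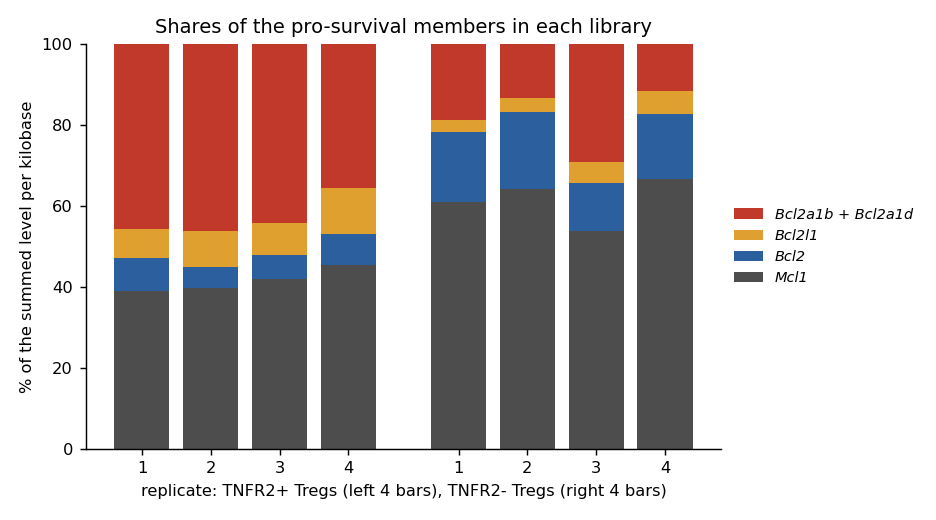
Stacked bars give, for each library, the share (%) of the summed level per kilobase of longest coding transcript held by *Mcl1*, *Bcl2*, *Bcl2l1* and the *Bcl2a1b* plus *Bcl2a1d* sum. The A1 share is 35.5% to 46.2% in the TNFR2+ libraries and 11.6% to 29.3% in the TNFR2- libraries, with TNFR2- replicate 3 the highest of its group.

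Among the death genes, *Bcl2l11* (chromosome 2 from 128126038 to 128162547, plus strand) had the largest change in size among the BH3-only members. BIM, its product, binds all of the pro-survival proteins and is held down by growth factor signaling. *Bcl2l11* had 269, 269.9, 377 and 259.9 normalized counts in TNFR2+ libraries and 1307, 1583, 778 and 776 in TNFR2- libraries. The TNFR2+ libraries lay close together apart from replicate 3, the TNFR2- libraries fell into a higher and a lower pair, and even the lower pair was more than 2-fold above the highest TNFR2+ library. The log2 fold change was −1.86 (SE 0.24, 95% confidence interval −2.38 to −1.34, adjusted p = 0.000633), and it lay between −2.01 and −1.67 when each library was left out in turn.

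The other BH3-only members did not pass the test. *Bid* (chromosome 6 from 120891930 to 120916853, minus strand), whose product links death receptors to the mitochondrion after cleavage by caspase-8, had 137, 208, 177 and 183 normalized counts in TNFR2+ libraries and 97.6, 106, 171 and 91.4 in TNFR2- libraries. It was below the TNFR2+ libraries in 3 of the 4 TNFR2- libraries, and TNFR2- replicate 3 lay among them (log2 fold change 0.62, 95% confidence interval 0.02 to 1.22, adjusted p = 0.198).

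*Bbc3* (chromosome 7 from 16308393 to 16318205, plus strand) encodes PUMA, a target of p53 and FOXO factors. It had 162, 88.7, 49.7 and 316 normalized counts in TNFR2+ libraries and 256, 189.8, 218 and 356 in TNFR2- libraries. TNFR2+ replicate 4 lay above 3 of the 4 TNFR2- libraries, and the other TNFR2+ libraries lay below them all. The log2 fold change was −1.01 (95% confidence interval −1.99 to −0.02, adjusted p = 0.208). Without TNFR2+ replicate 4 it was −1.46 with an adjusted p of 0.0431, and without TNFR2+ replicate 3 it was −0.58 with an adjusted p of 0.458. *Bbc3* passed in 1 of the 8 fits without a library.

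The effectors showed no difference that passed the test. *Bax* (chromosome 7 from 45461697 to 45466898, minus strand) had 117, 154, 123 and 139 normalized counts in TNFR2+ libraries and 176, 111, 149 and 155 in TNFR2- libraries (log2 fold change −0.14, 95% confidence interval −0.68 to 0.41, adjusted p = 0.796). *Bak1* (chromosome 17 from 27019810 to 27029009, minus strand) had 219.6, 219, 192 and 347 in TNFR2+ libraries and 127, 78.4, 176 and 390.2 in TNFR2- libraries. The 2 groups overlapped for both genes, and replicate 4 held the highest *Bak1* value of each group. The log2 fold change of *Bak1* was 0.55 (95% confidence interval −0.32 to 1.42, adjusted p = 0.459), and it was 0.21 without TNFR2- replicate 2 and 0.97 without TNFR2- replicate 4 (adjusted p = 0.811 and 0.102). With all libraries, a change of the size seen for *Bcl2l11* lay outside the intervals of both effectors.

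Of 16 further BCL2 family genes that were listed, 10 were in the table and all 10 were tested. *Bcl2l10*, *Bcl2a1a*, *Bcl2a1c*, *Bik*, *Hrk* and *Bok* were not analysed here. Of those tested, 1 was higher and 0 were lower, where 7.91% of all genes tested passed, so this share was near the background. At an unadjusted p under 0.05 there were 2 and 0, against 23.0% of all genes tested (12.3% higher and 10.7% lower). Their median log2 fold change was 0.78. The gene that was higher was *Pmaip1*, which encodes NOXA, a BH3-only protein that binds MCL1 and A1. It had 1149.8, 949.7, 1329.6 and 975 normalized counts in TNFR2+ libraries and 601, 355, 644 and 424 in TNFR2- libraries. Every TNFR2+ library was above every TNFR2- library (log2 fold change 1.15, SE 0.20, adjusted p = 0.00411), and the call held in all 8 fits without a library. *Pmaip1* and *Bcl2l11*, both BH3-only genes, thus differed in opposite directions. The *Pmaip1* to *Bcl2l11* ratio was 3.52 to 4.27 in TNFR2+ libraries and 0.224 to 0.828 in TNFR2- libraries.

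The remaining tested family genes did not pass. *Bcl2l12* had 40.2 to 86.4 normalized counts in TNFR2+ libraries and 9.09 to 32.3 in TNFR2- libraries, groups that did not overlap (log2 fold change 1.41, adjusted p = 0.113). *Bmf*, a BH3-only gene, had 55.3 to 186.5 in TNFR2+ libraries and 3.45, 15.1, 25.3 and 312 in TNFR2- libraries (log2 fold change 1.69, adjusted p = 0.330). Without TNFR2- replicate 2, the library at 312, the *Bmf* log2 fold change was 2.86 with an adjusted p of 0.0308, and without TNFR2- replicate 4, the library at 3.45, it was 0.81 with an adjusted p of 0.616. *Bcl2l14* (2.43), *Bnip3* (1.50), *Bad* (0.41), *Bcl2l15* (0.18), *Bcl2l13* (0.09), *Bcl2l2* (0.02) and *Bnip3l* (−0.14) followed by log2 fold change. Of these, *Bnip3l*, which acts in the removal of mitochondria, and *Bcl2l13* had means above 300 normalized counts in both groups, and the other 5 had means under 80.

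**Figure D3:**
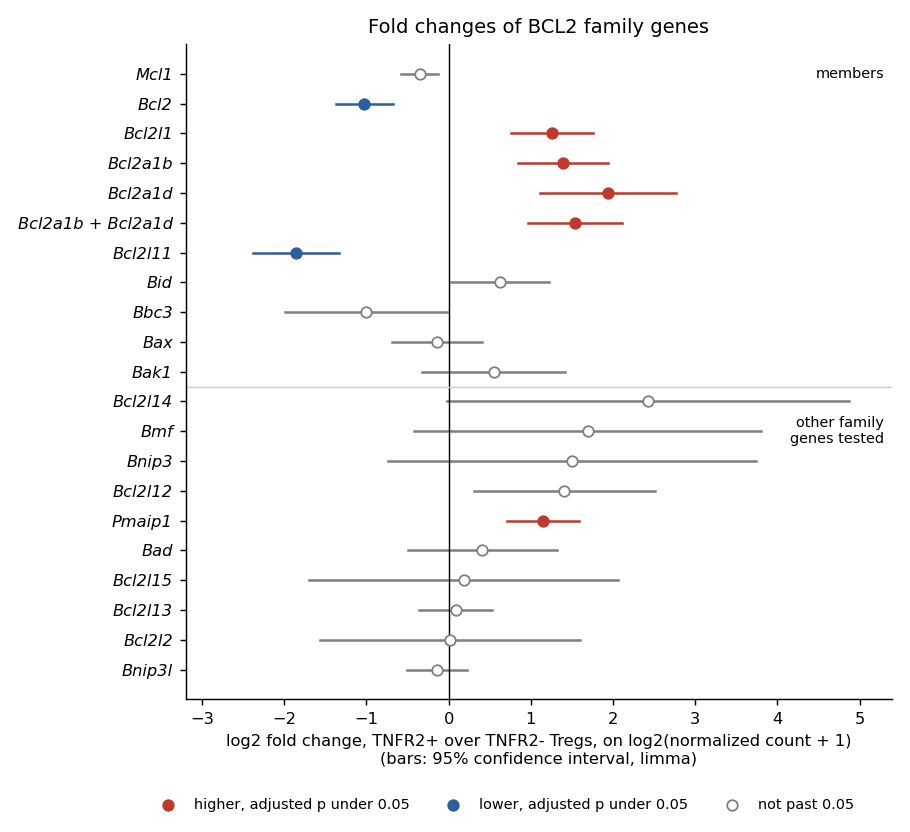
Log2 fold changes (TNFR2+ over TNFR2- Tregs, on log2(normalized count + 1)) with 95% confidence intervals from limma for the 10 members, the *Bcl2a1b* plus *Bcl2a1d* sum and the 10 other family genes tested. Filled points passed an adjusted p of 0.05, in red for higher (*Bcl2l1*, both *Bcl2a1* genes, their sum and *Pmaip1*) and in blue for lower (*Bcl2* and *Bcl2l11*).

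Ratios between death and survival genes within a library were examined as descriptions with no test. The *Bcl2l11* to *Mcl1* ratio of normalized counts was 0.0610 to 0.0925 in TNFR2+ libraries and 0.145 to 0.298 in TNFR2- libraries, with no overlap. The *Bcl2l11* to *Bcl2* ratio was 0.170 to 0.308 and 0.288 to 0.482, ranges that overlapped. The *Pmaip1* to *Mcl1* ratio went the other way, with 0.227 to 0.326 in TNFR2+ libraries and 0.0668 to 0.141 in TNFR2- libraries. The *Bax* to *Bcl2* ratio was also higher in TNFR2+ libraries, with 0.0745 to 0.133 against 0.0337 to 0.0705 and no overlap. The *Bak1* to *Mcl1* ratio overlapped, with 0.0470 to 0.0814 and 0.0147 to 0.0728. All of these ratios are to *Bcl2* or *Mcl1*, whose counts were lower in TNFR2+ libraries, which raises a ratio there. No death gene was set against *Bcl2l1* or the A1 sum, which were higher in TNFR2+ libraries. These ratios therefore do not describe a balance over all the pro-survival genes.

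**Figure D4:**
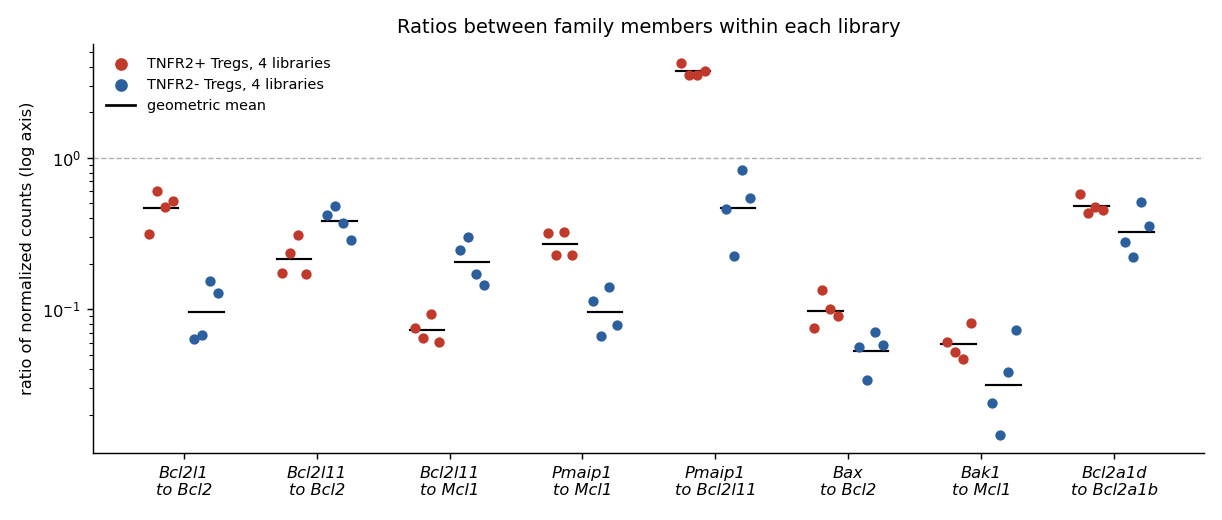
Ratios of normalized counts (log axis) between pairs of family genes within each of the 4 TNFR2+ (red) and 4 TNFR2- (blue) libraries; black lines are geometric means and the dashed line marks a ratio of 1. The groups are apart for *Bcl2l1* to *Bcl2*, *Bcl2l11* to *Mcl1*, *Pmaip1* to *Mcl1*, *Pmaip1* to *Bcl2l11* and *Bax* to *Bcl2*, and overlap for *Bcl2l11* to *Bcl2*, *Bak1* to *Mcl1* and *Bcl2a1d* to *Bcl2a1b*.

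For the outer membrane channels (*Vdac1*, *Vdac2* and *Vdac3*) and the apoptosome and its regulators, 10 genes are reported, and 0 of these 10 passed limma, where 7.91% of all genes tested did. When p was left unadjusted at 0.05, 5 were higher and 0 were lower, against 12.3% and 10.7% of all genes tested, and the median log2 fold change was 0.45. Single settings brought 2 of them past the threshold, *Vdac1* with rescaling to the same total (adjusted p = 0.0450) and without TNFR2- replicate 4 (0.0384), and *Xiap* without TNFR2+ replicate 1 (0.0187). They ranged from *Casp9* at −0.46 (adjusted p = 0.497) to *Htra2* at 1.29 (adjusted p = 0.0909). Of 8 listed genes that control the stability of MCL1, BIM or related proteins, 7 were in the table and 6 were tested, and 0 passed limma (0 at an unadjusted p under 0.05). These ranged from *Usp27x* at −0.39 to *Usp9x* at 0.09, with a median of −0.06.

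Upstream, 16 listed receptors and transcription factors known to control family genes were tested, and 3 were higher and 1 was lower, where 4.52% and 3.39% of all genes tested were. At an unadjusted p under 0.05 there were 4 and 5, against 12.3% and 10.7%, and the median log2 fold change was −0.07. *Rel* encodes the NF-kB subunit c-Rel, an inducer of *Bcl2l1* and the A1 genes in lymphocytes, and had 6957 to 7845 normalized counts in TNFR2+ libraries and 3385 to 4582 in TNFR2- libraries (log2 fold change 0.89, SE 0.11, adjusted p = 0.000498). *Il2rb*, the beta chain of the IL-2 receptor, had 4920 to 5062 and 2285 to 3274 (log2 fold change 0.86, SE 0.12, adjusted p = 0.000994). Neither gene overlapped between the groups, and both were called in all 8 fits without a library. The other IL-2 receptor chains did not pass. *Il2ra* was lower in TNFR2+ libraries with no overlap (log2 fold change −0.34, adjusted p = 0.0860), and *Il2rg* overlapped (0.03, adjusted p = 0.893).

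*Nfkb1* and *Foxo3* passed by less. *Nfkb1*, which encodes the NF-kB subunit p105, had a smaller difference (log2 fold change 0.42, SE 0.10, adjusted p = 0.0250). Its adjusted p was 0.0673, 0.0848 and 0.0670 without TNFR2+ replicates 2, 3 and 4 and 0.0736 without TNFR2- replicate 2. *Foxo3*, whose product induces *Bcl2l11* and *Bbc3* when growth factor signaling is low, had 949.7 to 1565 normalized counts in TNFR2+ libraries and 1659 to 2325 in TNFR2- libraries (log2 fold change −0.67, SE 0.16, adjusted p = 0.0245). The adjusted p of *Foxo3* was 0.0687, 0.0814 and 0.0525 without TNFR2+ replicates 1, 2 and 3 and 0.0548 and 0.0832 without TNFR2- replicates 1 and 2. The upstream genes that did not pass ranged from *Myc* at −0.41 to *Nfkb2* at 0.42 (adjusted p = 0.290 and 0.0657).

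**Figure D5:**
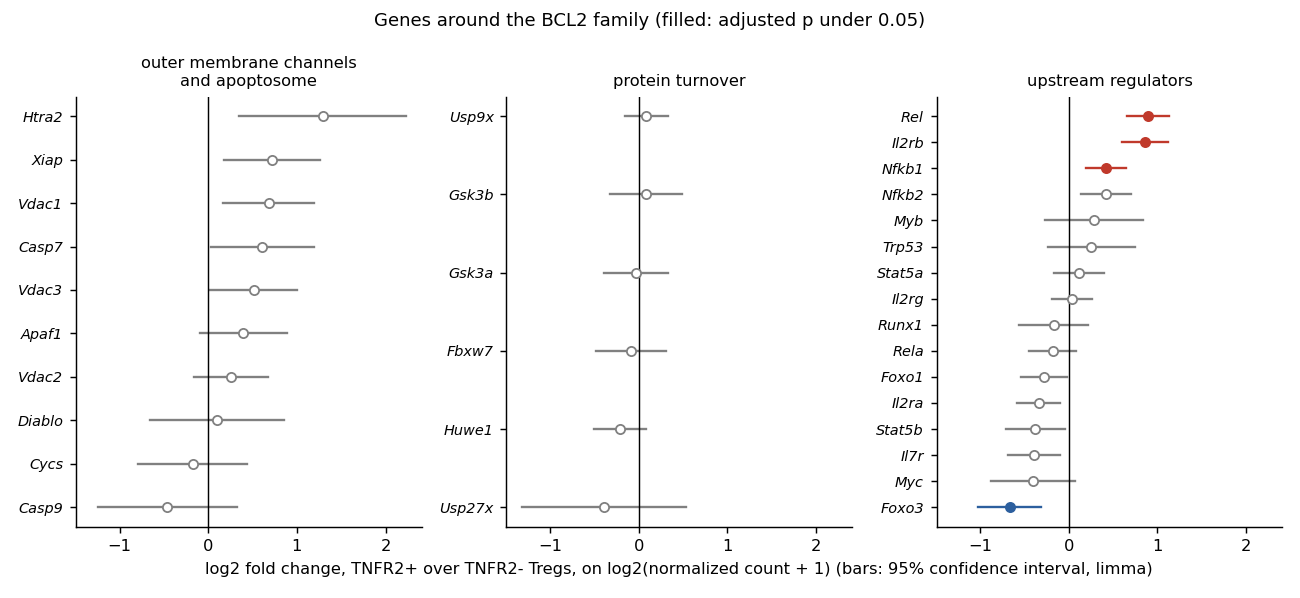
Log2 fold changes (TNFR2+ over TNFR2- Tregs, on log2(normalized count + 1)) with 95% confidence intervals from limma for the tested outer membrane channel and apoptosome, protein turnover and upstream genes. Filled points passed an adjusted p of 0.05 and are *Rel*, *Il2rb* and *Nfkb1* (higher, red) and *Foxo3* (lower, blue).

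The promoters of the members were read for the motifs of the factors named upstream, because *Bcl2l11* and *Bcl2l1* were among the members that changed and *Foxo3* and *Rel* among the factors. RefSeq start sites on GRCm38 gave 15 windows for the 10 members, each from 250 bases before the start to 50 after it. On both strands, the FOXO motif TGTTTAC was in 2 of the 15 windows, 1 of *Bcl2l11* and 1 of *Bbc3*, and in 3.65% of all 32851 windows. The NF-kB consensus was in 1 window each of *Bcl2l1* and *Bbc3* and in 4.51% of all windows. The STAT palindrome TTCNNNGAA was in 0 of the 15 windows and in 8.3% of all windows. The first 120 bases of the *Bcl2l11* window (chr2:128125788-128125907, plus strand), of the *Bbc3* window with the FOXO match (chr7:16310011-16310130, plus strand) and of the *Bcl2l1* window (chr2:152830848-152830967, minus strand) are shown to place these matches, with the FOXO match in capitals in the first 2 and the NF-kB match in capitals in the last.
Bcl2l11: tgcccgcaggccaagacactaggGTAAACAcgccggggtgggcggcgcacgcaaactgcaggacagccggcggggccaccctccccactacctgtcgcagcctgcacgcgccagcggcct
Bbc3: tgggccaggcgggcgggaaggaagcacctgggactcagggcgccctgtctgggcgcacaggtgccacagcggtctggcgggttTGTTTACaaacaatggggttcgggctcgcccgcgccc
Bcl2l1: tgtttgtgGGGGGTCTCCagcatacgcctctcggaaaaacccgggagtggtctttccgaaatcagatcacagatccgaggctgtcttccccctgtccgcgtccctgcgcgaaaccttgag

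*Bcl2l11* had 2 windows and *Bbc3* and *Bcl2l1* had 3 each, so each stretch shown belongs to 1 of several start sites. In its window, the *Bcl2l11* match begins 227 bases before the start site. The *Bbc3* match shown begins 167 bases and the *Bcl2l1* match 242 bases before the start sites of their windows. The NF-kB match of *Bbc3*, a member that did not pass the test, lay in another of its windows, which is not shown. The single windows of *Bcl2*, *Mcl1*, *Bcl2a1b* and *Bcl2a1d* held none of the 3 motifs. A match describes the letters in the window only, and binding was not measured in these libraries.

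The genes whose pattern over the 8 libraries was most like those of *Bcl2* and *Bcl2l1* were found by the SD of the log2 ratio to each, among 10244 other genes with a mean of at least 50. For *Bcl2* they were *Nmrk1* (SD 0.14), *Jakmip1* (SD 0.17) and *Ttc13* (SD 0.17). For *Bcl2l1* they were *Nme1* (SD 0.23), *Scd2* (SD 0.23) and *Prdx2* (SD 0.25). The 8 libraries share the split into 2 groups, so this likeness reflects that difference as well as the variation within a group.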

How the data were processed

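Stranded total RNA libraries (SMARTer Pico) of 4 TNFR2+ and 4 TNFR2- Treg samples were made by the authors, who trimmed their reads, ran salmon 1.3.0 against the transcriptome of Ensembl GRCm38 and normalized with DESeq2 1.28 in R 4.0. The deposited signal is the normalized count per gene, not on a log scale, for 20172 identifiers. The step from transcripts to genes and any gene filter are not given in the sources used here. GENCODE symbols of GRCm38 matched 20008 identifiers.

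In 2806 long single-transcript genes, 68.5% to 96.0% of the low values of a library were within 0.1 of whole multiples of a step (20% by chance), which gave the depth estimates. In genes with several transcripts it was 38.0% to 50.9%, so reads were not recovered and no count model was fitted. Normalizing to size factors assumes that most genes do not change, and near-identical copies can exchange reads. The depth sets the counting error only, while the intervals from limma carry the spread between libraries.

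Values were taken as log2(normalized count + 1), so fold changes of low genes are understated. Genes with a mean of at least 10 were tested with limma 3.58.1 (R 4.3.3, intensity trend, two-sided, Benjamini-Hochberg over 13990 genes, threshold 0.05). Exact permutation tests over 70 relabellings stood beside it. The *Bcl2a1* sum was fitted in a table with the 2 rows replaced by their sum. No pair of libraries of a group was a duplicate (27.2 to 83.9 times the counting noise). The procedure was tested on simulated data.

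The members, the lists and the tests were chosen with earlier results of these data known. Named were all members, all other family genes tested and every listed gene with an adjusted p under 0.05, also in a single setting. Also named were the range ends of the other lists, the other IL-2 receptor chains and the 3 genes most like *Bcl2* and *Bcl2l1*. A gene of the channel and apoptosome list is not reported here, and the counts for that list leave it out. *Marchf5* of the turnover list was not matched by symbol, and *Trim17* had a mean under 10. Alternatives were pseudocounts of 0.5 and 5, no filter or a mean of at least 50, no intensity trend, rescaling to the same total or upper quartile, the replicate number as a block, each library left out, and the mean transcript length. Python 3.11.15 and matplotlib 3.10.9 were used for the remaining steps.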

Additional observations from a re-analysis of the deposited data

Results flagged for a closer look

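Samples far from the other 3 of their group were looked for in the members, the other family genes tested and the listed genes that passed, by the gap of the highest or lowest library to its neighbour over the range of the group, against the 95% critical value of Dixon's test. Of 50 groups of 4 libraries, 5 exceeded it, and chance gives about 1 in 20. *Mcl1* in TNFR2- replicate 3 had 4579 normalized counts, and the other TNFR2- libraries had 5278 to 5363. *Bcl2l11* in TNFR2+ replicate 3 had 377, against 259.9 to 269.9 in the other TNFR2+ libraries, and still lay below every TNFR2- library. *Bcl2l2* in TNFR2- replicate 1 had 244, against 14.7 to 27.1. *Bmf* in TNFR2- replicate 2 had 312, against 3.45 to 25.3. *Bcl2l12* in TNFR2- replicate 3 had 9.09, against 28.6 to 32.3.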

How the results depend on the processing

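*Bcl2*, *Bcl2l1*, *Bcl2a1b*, *Bcl2l11* and the *Bcl2a1* sum kept their direction and stayed past the threshold under all 16 alternatives. *Bcl2a1d* (log2 fold change 1.94) did not pass without an intensity trend, and the number of genes called was then 465 in place of 1107 and that of channel and apoptosome, turnover and upstream genes 2 in place of 4. *Mcl1* passed with a mean of at least 50 (−0.35) and with rescaling to the upper quartile (−0.37). Rescaling to the same total moved the median of all genes tested from −0.01 to 0.12 and the calls from 633 higher and 474 lower to 905 and 309, and no member changed sign. Under the mean transcript length, levels per kilobase in TNFR2+ and TNFR2- Tregs were 273 and 559 for *Bcl2*, 419 and 177 for *Bcl2l1* and 1885 and 2402 for *Mcl1*.

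With each library left out in turn, log2 fold changes ranged from −0.40 to −0.30 for *Mcl1*, from −1.46 to −0.58 for *Bbc3*, from −0.27 to −0.047 for *Bax*, from 0.21 to 0.97 for *Bak1* and from 0.40 to 2.21 for *Bnip3*, genes called from 636 to 1324, other family genes called from 1 to 2, and channel and apoptosome, turnover and upstream genes called from 2 to 5. The lowest counts of genes called came without TNFR2+ replicate 2 (636), TNFR2+ replicate 3 (693) and TNFR2- replicate 2 (711). The cause was not tested. Among genes not called, *Bcl2l2* changed sign with a pseudocount of 5 (−0.040) and with rescaling to the upper quartile (−0.00034). Without a library, *Bcl2l2* ranged from −0.42 to 0.90 and *Bcl2l13* from −0.068 to 0.22. *Bcl2l15* ranged from −0.13 to 0.82 over the 6 such fits that tested it, since its mean was under 10 without TNFR2+ replicate 1 or 2. *Nfkb1* and *Foxo3* did not pass without an intensity trend (adjusted p = 0.152 and 0.117), nor *Foxo3* with rescaling to the same total (0.0617), under which *Nfkb2* (0.0204) passed.

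Same-numbered libraries did not deviate together (correlations of 0.00 to −0.04 across genes), so the replicate numbers were not taken as pairs. With the replicate number as a block, 1183 genes were called, 1008 of them among the 1107, and 5 of the 10 members, with adjusted p values of 0.00202 for *Bcl2*, 0.00327 for *Bcl2l1*, 0.00399 for *Bcl2a1b*, 0.00671 for *Bcl2a1d*, 0.00147 for *Bcl2l11* and 0.0600 for *Mcl1*, and *Nfkb2* also passed (0.0489). *Bcl2l14*, with means of 16.9 and 4.88 normalized counts, had a 95% confidence interval that ran from −0.02 to 4.87.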
